A study of Homo sapiens with 12 samples.

Results

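HCC-LM3, a human hepatocellular carcinoma line of high metastatic potential, was compared with and without METTL5 by RNA sequencing of cultured cells. The comparison holds 6 of the 12 libraries in the series: 3 from untreated HCC-LM3 cells labelled wild type and 3 from HCC-LM3 cells infected with a guide RNA against METTL5 and labelled METTL5 knockout. All 6 were of total RNA extracted with TRIzol, and the labels name no control guide for the wild-type cells, no clone and no separate cultures. An infected arm was therefore set against an uninfected one. The p-values reflect library-to-library spread alone, possibly only technical. No library of the second cell line entered any fit or level given here.

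METTL5 is the methyltransferase that places an N6-methyladenosine on the small-subunit ribosomal RNA, close to the decoding centre. It works as a dimer with TRMT112, a small activator that also serves other methyltransferases, and without TRMT112 the METTL5 protein is unstable. The mark sits on mature ribosomes, so the enzyme is studied for its part in translation. The measurement here is mRNA abundance, which does not read translation.

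Total counts ran from 21730022 to 26415554 per library, and 14654 genes had enough counts to be tested. Levels are given in CPM, a gene's share of all counts, after TMM scaling, differences as log2 fold changes (knockout minus wild type) with their standard errors, and a gene was called when its Benjamini-Hochberg adjusted p from edgeR's quasi-likelihood test was under 0.05. Wild-type replicate 1 stood apart from the other wild-type libraries. Its median absolute log2 difference was 0.242 from replicate 2 and 0.239 from replicate 3, against 0.0966 between replicates 2 and 3. Over 2528 called genes that differed by at least 0.5 between the knockout mean and wild-type replicates 2 and 3, it lay at a median of 0.404 of the way to the knockout mean. Keratins of simple epithelium were abundant (KRT8 at 1707 to 1962 TPM, a length-scaled share of transcripts), whereas the 28 hepatocyte plasma proteins and factors checked were uneven. ALB did not exceed 0.04 TPM, and APOB, APOH, HP, ORM1, TTR and the factor FOXA2 had no count in any library. C3, a complement protein, ran from 126 to 128 TPM in wild type and 169 to 193 in knockout and was called higher (0.71 ± 0.08, adjusted p = 0.000395), while RBP4 ran from 24.8 to 31.8 TPM and VTN from 7.72 to 9.48 TPM over the 6 libraries. Summed leukocyte markers ran from 45 to 48.0 TPM in wild type and 51.6 to 57.9 in knockout, with CD68 carrying nearly all of it and PTPRC at 0 throughout. Summed cholangiocyte markers ran from 718 to 799 TPM in wild type and from 859 to 886 TPM in knockout. KRT7, SLC4A2 and MUC1 carried nearly all of that sum, whereas KRT19, SOX9 and CFTR did not exceed 0.55, 1.09 and 0.11 TPM. Summed fibroblast and endothelial markers did not exceed 20.3 and 1.84 TPM.

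Library composition also moved with the groups. The count-weighted mean GC content of protein-coding transcripts was 52.3% ± 0.37 in wild type and 53.3% ± 0.064 in knockout (SD, n = 3 each; exact permutation test, two-sided p = 0.1, the smallest that 3 against 3 allows). The mitochondrial mRNA share was 3.83% ± 0.24 and 4.15% ± 0.21 (exact permutation p = 0.2). Gene groups are therefore given below both from the main fit and from a fit with offsets per library for transcript GC content and gene length. The offsets were fitted to these same libraries, so they also take out any knockout difference that follows GC content or length. The part of composition in each result was not tested beyond those values.

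After the first fits had been seen, 7 rows of the authors' deposited values were set aside, 4 of them because they repeat another gene's numbers. RNA5-8SN1, a ribosomal RNA gene, was listed with estimated counts of 39.38, 8.75 and 19.38 in the wild-type libraries and 42.75, 65.0 and 89.5 in the knockout libraries. The rows of HK2, a hexokinase isoform, and ADH4, an alcohol dehydrogenase, held exactly these 6 numbers. The rows of PKM, pyruvate kinase, and SLC2A1, the main glucose transporter of many tumour cells, held the same numbers with the groups exchanged: 42.75, 65.0 and 89.5 in wild type and 39.38, 8.75 and 19.38 in knockout. The TPM columns repeated in the same way. Relative to count and gene length, the TPM values of HK2, SLC2A1, PKM and ADH4 ranked from 1 to 4 among 14642 tested genes, whereas the RNA5-8SN1 gene is only 153 bases long. The rows of RNA5-8SN2, RNA5-8SN3 and 5_8S_rRNA, further ribosomal RNA rows, also held the 6 counts of RNA5-8SN1 in the same order and were not set aside. Outside the rows named here, no tested gene carried another gene's 6 counts with the groups exchanged. Taken as deposited, HK2 and ADH4 would be called higher in knockout and PKM and SLC2A1 lower, but these rows do not hold separate measurements of the 4 genes. How the rows came to repeat was not tested.

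The other 3 rows set aside were the glycolytic genes ENO1, LDHA and TPI1, chosen after their values were seen. Their rows repeat no other gene, but their estimated counts lay between 12 and 148, while GAPDH had 237451 to 331994, ALDOA 42846 to 71151 and LDHB 12964 to 19458. All 3 would be called lower in knockout as deposited, and they are treated as uncertain. Without the 7 rows 4335 genes were called in place of 4340. The list of hypoxia-inducible and glycolytic genes depended on them: 15 of 48 members tested rose and 11 fell as deposited, against 14 and 6 of 42 without them, where 14.1% of all tested genes rose and 15.5% fell.

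METTL5 (chr2:169810081-169824931, minus strand, GRCh38) had 11.5, 11.7 and 14 CPM in the wild-type libraries and 0, 0 and 0 CPM in the knockout libraries. With a floor of 3 counts per knockout library, it was at least 97.3-fold lower in knockout, and at least 100.7-fold lower without wild-type replicate 1. The targeted gene therefore matched the label in all 6 libraries. TRMT112 had 171, 124 and 134 CPM in the wild-type libraries and 146, 153 and 169.6 CPM in the knockout libraries, and the groups overlapped (0.13 ± 0.11, adjusted p = 0.431). Without wild-type replicate 1 TRMT112 passed the test (0.26, adjusted p = 0.0028). Protein-coding genes flanking METTL5 were also lower: SSB, which encodes the La RNA-binding protein and overlaps METTL5 (-0.57 ± 0.13, adjusted p = 0.00934); UBR3, a ubiquitin ligase 2527 bases away (-0.9 ± 0.20, adjusted p = 0.00733); and KLHL23, 33092 bases away (-1.14 ± 0.20, adjusted p = 0.00244). With GC and length offsets SSB no longer passed (-0.21, adjusted p = 0.199). The 20 tested protein-coding genes in the stretch from MARCHF7 to UBR3, with METTL5, SSB and KLHL23 among them, had a median of −0.49. Of these, 9 fell, METTL5 and the flanking genes just named included, and 0 rose. Their median was −0.13 with offsets, and their median transcript GC content was 39.9%. Among all tested protein-coding genes of 38 to 42% GC, 39.3% fell and 1.32% rose. Over 614 stretches of 20 tested protein-coding genes, the lowest median log2 fold change was −0.58.

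EXOSC6 was the only other gene with at least 50 counts in every library of one group and at most 3 in every library of the other. It encodes a subunit of the barrel of the RNA exosome, the complex that degrades and trims RNA from its 3′ end, and lies at chr16:70246778-70251930 on the minus strand. EXOSC6 had 2.5, 3.68 and 5.59 CPM in the wild-type libraries and 0, 0 and 0 CPM in the knockout libraries. All 3 knockout libraries were at 0, which with the same floor makes it at least 30.8-fold lower, or 36.4-fold without wild-type replicate 1. AARS1, the alanyl-tRNA synthetase gene that lies 365 bases away, rose (0.59 ± 0.10, adjusted p = 0.00208).

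In the whole comparison 4340 genes (29.6%) were called, 2066 (14.1%) higher and 2274 (15.5%) lower in knockout. Most differences were small. Changes of 2-fold or more (1 on the log2 scale) were found for 274 called genes (1.87%), 115 of them higher and 159 lower, while 2115 called genes lay between 0.25 and 0.5. Knockout and wild-type values did not overlap for 6350 genes (43.3%). Without wild-type replicate 1 the count rose to 7231, with 22.7% of tested genes higher and 25.5% lower, and 4280 of the 4340 calls were shared with the same sign. With GC and length offsets 3396 genes were called, 2171 of them shared with the same sign. Of the 14654 genes tested in that fit, 1761 were higher and 1635 (11.2%) lower. Lists given with offsets are to be read against these shares.

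**Figure D1:**
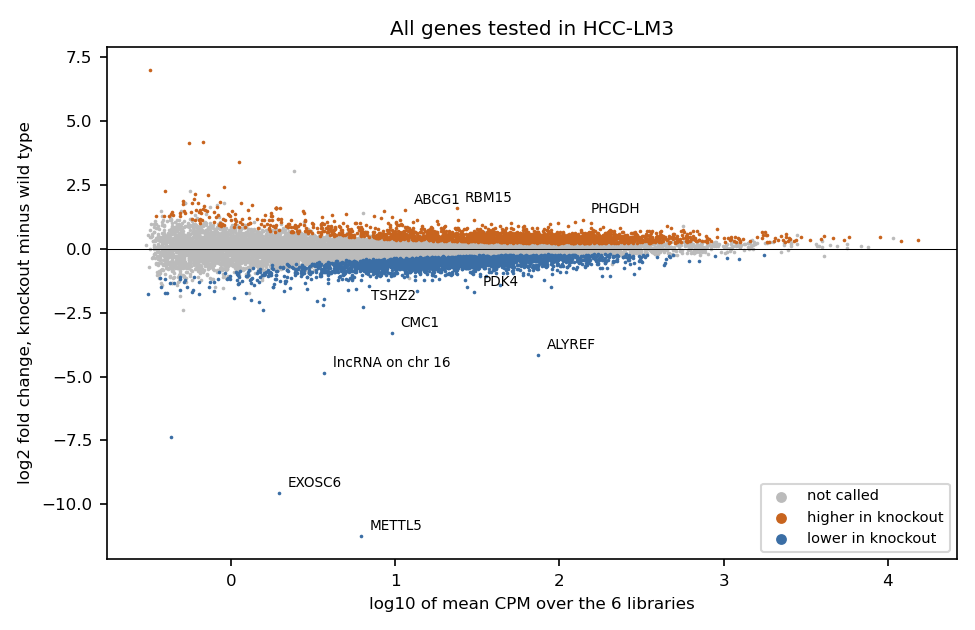
Each point is one of the tested genes, with the log10 of its mean CPM over the 6 libraries on the x axis and its log2 fold change, knockout minus wild type, on the y axis; orange points were called higher and blue points lower. METTL5 and EXOSC6, both at 0 counts in knockout, lie farthest below the rest, where the plotted fold change depends on the prior count and is no bound, and ALYREF lies apart at −4.16.

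Among called protein-coding genes of at least 5 CPM whose groups did not overlap, the largest falls after METTL5 were in ALYREF and CMC1. ALYREF, the adaptor that loads spliced mRNA onto the export receptor, had 163, 123 and 136 CPM in the wild-type libraries and 8.06, 8.83 and 6.77 CPM in the knockout libraries. Its log2 fold change was -4.16 ± 0.13, adjusted p = 5.22e-08. ALYREF overlaps ANAPC11, a subunit of the anaphase-promoting complex, which did not pass the test (−0.06, adjusted p = 0.673), while the long non-coding RNA gene ENSG00000263731, 6738 bases away, fell (-2.08 ± 0.33, adjusted p = 0.00159). CMC1, a mitochondrial protein needed to assemble cytochrome c oxidase, had 18.7, 16.5 and 16.9 CPM in the wild-type libraries and 1.77, 1.97 and 1.53 CPM in the knockout libraries (-3.31 ± 0.15, adjusted p = 1.40e-06). AZI2, which overlaps CMC1, did not pass (−0.27, adjusted p = 0.133). The rows of ALYREF and CMC1 repeat no other gene's counts. Relative to count and gene length, the TPM of ALYREF lay 0.07 above the median of tested genes on the log2 scale, but that of CMC1 lay 2.45 above it, beside 2.34 for LDHA, a row set aside. The table lists both genes higher, not lower, in the knockout columns of the second cell line, and how that relates to the values here was not tested. Whether counting used strand is not stated, so reads of overlapping genes cannot be told apart.

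Several metabolic genes fell alongside. PDK4, the kinase that shuts pyruvate dehydrogenase, had 38.7, 51.1 and 48.9 CPM in the wild-type libraries and 15.3, 13.2 and 13.9 CPM in the knockout libraries (-1.71 ± 0.12, adjusted p = 3.64e-05). HK1, the housekeeping hexokinase, had 9.12, 8.86 and 7.87 CPM in the wild-type libraries and 2.53, 3.52 and 2.58 CPM in the knockout libraries (-1.59 ± 0.17, adjusted p = 0.00036). Its row repeats no other gene, which also holds for ENO1, LDHA and TPI1. HK1 had estimated counts of 183 to 248 in wild type and 63 to 75 in knockout, beside 12 to 148 in those 3 rows. Relative to count and gene length, the TPM of HK1 lay 0.26 above the median of tested genes on the log2 scale. GDA, guanine deaminase, had 112, 137 and 143 CPM in the wild-type libraries and 46.1, 47.3 and 46.3 CPM in the knockout libraries (-1.49 ± 0.10, adjusted p = 2.98e-05). BPGM, bisphosphoglycerate mutase, fell (-1.62 ± 0.34, adjusted p = 0.00583), but without wild-type replicate 1 it missed the threshold (-1.50, adjusted p = 0.0505). SLC16A1, the lactate and pyruvate transporter, fell (-1.0 ± 0.10, adjusted p = 0.000262). HIF1A, the hypoxia factor, fell (-0.57 ± 0.18, adjusted p = 0.0348), but not with offsets (-0.13, adjusted p = 0.402). PFKL and ALDOA, enzymes of upper glycolysis, rose (0.6 ± 0.08, adjusted p = 0.000945 and 0.56 ± 0.10, adjusted p = 0.00252), and CA9, a carbonic anhydrase of hypoxic tumours, rose from 14.7, 16 and 14.8 CPM to 34.6, 38.1 and 26 CPM (1.12 ± 0.14, adjusted p = 0.00057). Of the 42 hypoxia-inducible and glycolytic genes left after the 7 rows were set aside, 14 rose and 6 fell, and 14 and 5 with offsets. Scaled by library totals alone, which moved the median of all genes to −0.14, 9 rose and 9 fell. Without wild-type replicate 1 the members rising and falling numbered 19 and 13. With each of the other 5 libraries left out in turn they numbered 9 to 12 and 4 to 5.

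TSHZ2, a zinc finger homeobox factor, had 8.22, 12.2 and 11.2 CPM in the wild-type libraries and 1.73, 2.91 and 1.97 CPM in the knockout libraries (-2.27 ± 0.22, adjusted p = 0.000237). FERMT2, a kindlin that activates integrins, fell (-1.48 ± 0.16, adjusted p = 0.000356), and CIPC, a repressor that binds CLOCK (-1.47 ± 0.23, adjusted p = 0.00167). LRRC58 (-1.43), ZNF322 (-1.24), KIAA1143 (-1.24), DCAF13 (-1.23; a nucleolar protein of small-subunit processing) and MYCBP (-1.23) completed the 15 largest falls, with adjusted p between 9.22e-05 and 0.00192. Of these 15, 14 kept their call in every alternative fit tried; BPGM was the exception.

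By the same limits on class, level and overlap, the largest rise was in RBM15, which guides the N6-methyladenosine writer complex to mRNA. RBM15 had 10.5, 10.9 and 14.2 CPM in the wild-type libraries and 36.9, 35.5 and 33.6 CPM in the knockout libraries (1.58 ± 0.12, adjusted p = 8.00e-05). ABCG1, the sterol efflux transporter, had 4.95, 7.57 and 5.29 CPM in the wild-type libraries and 14.9, 22.2 and 13.9 CPM in the knockout libraries (1.51 ± 0.21, adjusted p = 0.000968). PHGDH, which catalyses the first step of serine synthesis, had 107, 78.6 and 73.5 CPM in the wild-type libraries and 177, 191 and 202 CPM in the knockout libraries (1.14 ± 0.13, adjusted p = 0.000392). SEMA4B, a semaphorin, had 82.4, 77.3 and 82.3 CPM in the wild-type libraries and 169, 170.5 and 161 CPM in the knockout libraries (1.05 ± 0.07, adjusted p = 3.64e-05). The complement genes C4A (1.49 ± 0.18, adjusted p = 0.000484) and C4B (1.22 ± 0.30, adjusted p = 0.0115) also rose, but they are near-identical copies whose reads may be split between them, and C4B lost its call with offsets (0.98, adjusted p = 0.0883). ALOX5, an arachidonate lipoxygenase, rose (1.35 ± 0.17, adjusted p = 0.00057). BLOC1S5-TXNDC5 (1.29, a readthrough of other genes), PCDH1 (1.22), KREMEN2 (1.14), SHC2 (1.14), KIF21B (1.11), LFNG (1.07) and MALL (1.05) made up the rest, with adjusted p between 0.000237 and 0.00228.

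**Figure D2:**
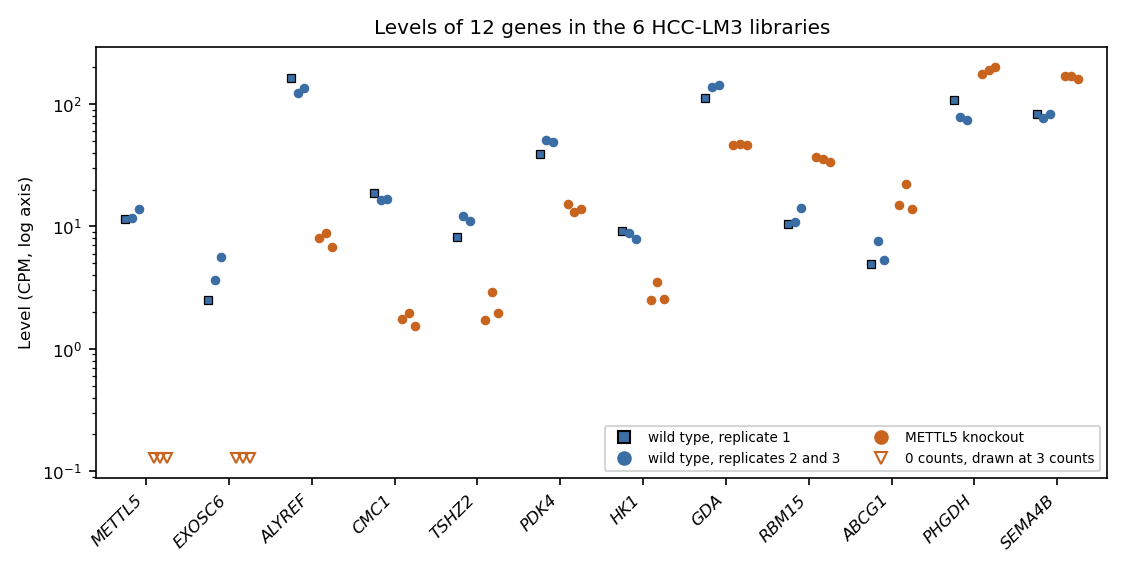
CPM on a log axis for 12 genes, with each library a point, wild type in blue (replicate 1 as an outlined square) and knockout in orange; open triangles mark 0 counts, drawn at the level of 3 counts. The groups do not overlap for any of the 12 genes, which was a condition of choosing all of them but METTL5 and EXOSC6. Wild-type replicate 1 is the wild-type library nearest to the knockout libraries for TSHZ2, PDK4, GDA and PHGDH, among others. It is the farthest from them for ALYREF, CMC1, HK1, RBM15 and ABCG1.

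Of 1417 long non-coding RNA genes tested 50 rose (3.53%) and 78 fell (5.50%), beside 1972 and 2171 of 12562 protein-coding genes. Protein-coding genes of low level were also called less often. Under 1 CPM 4.27% rose and 2.40% fell, and at 1 to 5 CPM 5.99% rose and 10.4% fell. The difference between the classes was not tested at matched level. Among long non-coding genes of at least 1 CPM whose groups did not overlap, the largest fall was in ENSG00000263244 (chr16:9104848-9113181). It had 6.63, 9.22 and 5.55 CPM in the wild-type libraries and 0.241, 0.517 and 0 CPM in the knockout libraries (-4.86 ± 0.48, adjusted p = 0.000239). The overlapping gene HAPSTR1 did not pass (−0.07, adjusted p = 0.569). PRR11-AS1 had 6.02, 6.43 and 5.12 CPM in the wild-type libraries and 0.722, 1.5 and 2.3 CPM in the knockout libraries (-1.96 ± 0.31, adjusted p = 0.00153). CERS6-AS1 fell (-2.01 ± 0.39, adjusted p = 0.00422) and PGLS-DT rose (1.2 ± 0.27, adjusted p = 0.00784). ENSG00000275719 was at 0 in wild-type replicates 2 and 3 and at 0.602 CPM in replicate 1, against 2.69, 1.6 and 1.85 CPM in knockout. SLC1A5, the glutamine transporter gene that overlaps it, also rose (0.5 ± 0.10, adjusted p = 0.00495).

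Rises and falls differed in transcript GC content. Among 967 protein-coding genes under 38% GC, 13 rose and 434 fell, with a median log2 fold change of −0.46; among 1255 genes of 62% or more, 516 rose and 21 fell, with a median of 0.30. With GC and length offsets these medians were −0.03 and 0.03. Because the offsets were fitted to these same trends, medians near 0 follow from the fit and are no separate result. On chromosome 19, rich in GC, 305 of 1028 tested genes rose and 24 fell, whereas on chromosome 13, 18 of 235 rose and 63 fell.

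Among the most abundant mRNAs FTH1, ferritin heavy chain, rose (0.47 ± 0.12, adjusted p = 0.0121), and GAPDH rose (0.31 ± 0.10, adjusted p = 0.0362) but not with offsets (0.12, adjusted p = 0.107).

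**Figure D3:**
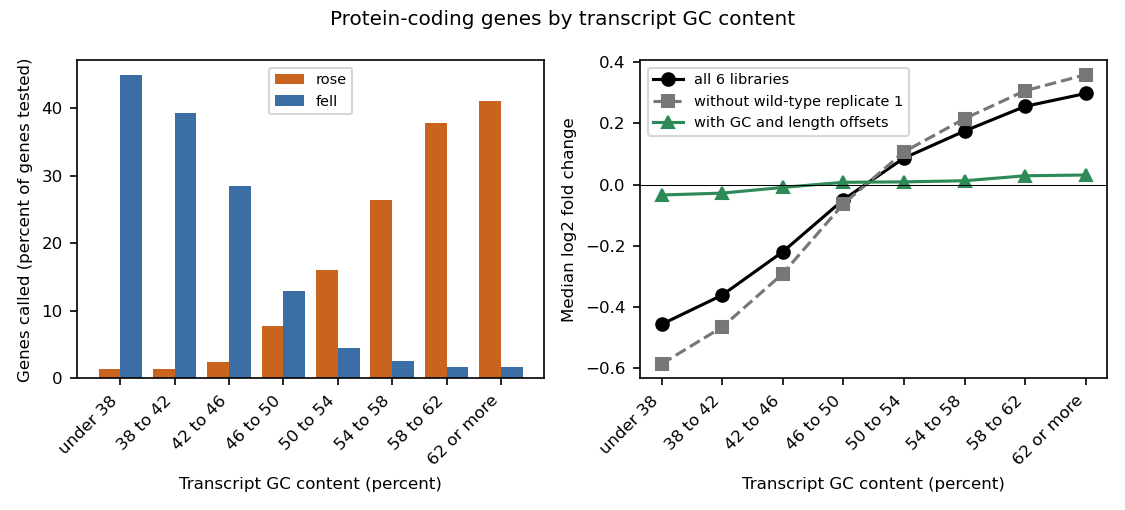
Left, the percent of tested protein-coding genes that rose or fell in each bin of transcript GC content; right, the median log2 fold change per bin from all 6 libraries, without wild-type replicate 1, and with GC and length offsets. The medians run from −0.46 under 38% GC to 0.30 at 62% or more, and from −0.03 to 0.03 with offsets, which are fitted to take this trend out.

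Immediate early genes are those that growth factor signals switch on without new protein synthesis. The list used here joins them with feedback genes of the ERK kinase pathway. Of 33 tested, 21 rose and none fell, with a median log2 fold change of 0.42 against −0.01 over all genes tested, and the counts were again 21 and 0 with offsets. JUN, the AP-1 subunit, had 123, 106 and 109.9 CPM in the wild-type libraries and 189.9, 202 and 207 CPM in the knockout libraries (0.82 ± 0.08, adjusted p = 0.000237). FOSL1, its partner, had 77.2, 51.4 and 61.9 CPM in the wild-type libraries and 101, 97.8 and 114 CPM in the knockout libraries (0.71 ± 0.13, adjusted p = 0.00296). Wild-type replicate 1 was the highest wild-type library for both. IER3 (0.82 ± 0.11, adjusted p = 0.000919) and DUSP8, a phosphatase that turns MAP kinases off (0.7 ± 0.11, adjusted p = 0.00167), also rose. Rising and falling members without wild-type replicate 1 numbered 25 and 1. Leaving out each of the other 5 libraries gave 14 to 16 and 0.

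Effectors of ATF4, the factor that the integrated stress response induces through translation of its mRNA, rose in 7 of 14 tested genes and fell in none, and in 7 and 0 with offsets. CHAC1, which degrades glutathione, had 9.21, 7.43 and 7.61 CPM in the wild-type libraries and 13.3, 15.3 and 15.7 CPM in the knockout libraries (0.87 ± 0.13, adjusted p = 0.00148). SESN2, an inhibitor of mTORC1 signalling, had 35, 28.6 and 27.7 CPM in the wild-type libraries and 57.9, 58.3 and 54.8 CPM in the knockout libraries (0.91 ± 0.10, adjusted p = 0.000392). GDF15, a secreted stress hormone, had 28.1, 19.2 and 22.4 CPM in the wild-type libraries and 39.9, 44.3 and 48.2 CPM in the knockout libraries (0.93 ± 0.13, adjusted p = 0.00111). All knockout libraries lay above all wild-type libraries for these 3. STC2 rose (0.56 ± 0.07, adjusted p = 0.000841). Among 14 transcription factors and kinases of the pathway 6 rose and 2 fell, with rises in NUPR1 (0.63 ± 0.16, adjusted p = 0.014), TRIB3 (0.55 ± 0.10, adjusted p = 0.00321), PPP1R15A, the phosphatase subunit that ends the response (0.55 ± 0.12, adjusted p = 0.00741), and DDIT3, which encodes CHOP (0.52 ± 0.15, adjusted p = 0.0223), whereas ATF4 mRNA itself did not pass the test (0.07, adjusted p = 0.612). Amino acid synthesis enzymes rose in 7 of 18 and fell in 2, with rises in GPT2 (0.86 ± 0.10, adjusted p = 0.000395), ASL (0.64 ± 0.10, adjusted p = 0.00187) and PYCR1 (0.48 ± 0.10, adjusted p = 0.00639). Serine and one-carbon enzymes rose in 4 of 18 and fell in 1. With offsets the members rising and falling were 6 and 2 for the factors and kinases, 6 and 1 for amino acid synthesis and 7 and 3 for serine and one-carbon enzymes. Scaled by library totals alone, members rising and falling were 7 and 0 for ATF4 effectors and 5 and 4 for the factors and kinases. Amino acid synthesis then had 4 and 3, and serine and one-carbon enzymes 3 and 3. Leaving out wild-type replicate 1 gave, rising and falling, 9 and 1 for ATF4 effectors, 7 and 5 for the factors and kinases, 12 and 2 for amino acid synthesis, 6 and 4 for serine and one-carbon enzymes. Each of the other 5 left out in turn gave 7 and 0 for ATF4 effectors, 4 to 6 and 0 to 1 for the factors and kinases, 4 to 5 and 1 for amino acid synthesis, 2 to 3 and 1 for serine and one-carbon enzymes.

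The RefSeq promoter of CHAC1 (chr15:40953221-40953520, plus strand, GRCh38.p14, 250 bases before the start to 50 after it) is shown because it holds the TGATGNAAN motif bound by ATF4-type dimers, the only one of 6 risen effectors with a promoter in the table that does; the motif is in 1.65% of 10681 promoters of tested genes. Capitals mark the match, here on the opposite strand.
CHAC1: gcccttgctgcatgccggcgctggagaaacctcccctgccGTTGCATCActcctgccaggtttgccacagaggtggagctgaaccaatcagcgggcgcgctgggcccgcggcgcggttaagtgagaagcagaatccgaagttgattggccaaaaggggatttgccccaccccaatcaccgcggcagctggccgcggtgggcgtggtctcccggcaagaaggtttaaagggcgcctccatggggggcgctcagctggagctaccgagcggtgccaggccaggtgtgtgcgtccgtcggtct

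Liver X receptor targets, which respond to excess sterol, rose in 8 of 14 and fell in none, and in 6 and 0 with offsets. ABCG1 led them. SREBF1, the lipogenic regulator, had 119, 121 and 121 CPM in the wild-type libraries and 177, 232 and 186 CPM in the knockout libraries (0.72 ± 0.10, adjusted p = 0.000909). NR1H3, which encodes the receptor LXR-alpha, rose (0.45 ± 0.11, adjusted p = 0.0128) and LPCAT3, which remodels phospholipids (0.44 ± 0.08, adjusted p = 0.00401). Cholesterol synthesis genes rose in 4 of 27 and fell in 10. CYP51A1, a sterol demethylase, had 113, 124 and 132 CPM in the wild-type libraries and 65.6, 77.2 and 67.1 CPM in the knockout libraries (-0.81 ± 0.09, adjusted p = 0.000392). With offsets the members rising and falling were 3 and 9 for cholesterol genes. Without wild-type replicate 1 the members rising and falling numbered 9 and 0 for LXR targets, 5 and 11 for cholesterol genes. With each of the other 5 libraries left out in turn they numbered 4 to 5 and 0 for LXR targets, 2 to 4 and 8 to 10 for cholesterol genes.

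The long-chain acyl-CoA synthetases, which activate fatty acids, held 2 called members among 4 tested, both lower in knockout. ACSL3 had 42.3, 51.6 and 54.7 CPM in the wild-type libraries and 29, 36.6 and 31.9 CPM in the knockout libraries (-0.61 ± 0.12, adjusted p = 0.00409). ACSL4, which activates arachidonic acid, had 23.6, 35 and 39.9 CPM in the wild-type libraries and 19.2, 26.2 and 21.9 CPM in the knockout libraries (-0.55 ± 0.18, adjusted p = 0.0366), and the groups overlapped. Neither kept its call with GC and length offsets (-0.20, adjusted p = 0.0547 for ACSL3 and -0.15, adjusted p = 0.294 for ACSL4). ACSL1 (-0.29 ± 0.11, adjusted p = 0.0574) and ACSL5 (0.54 ± 0.20, adjusted p = 0.0619) did not pass. ACSL5 passed with offsets, higher in knockout (0.73, adjusted p = 0.0122), which gave 1 member rising and 0 falling, and ACSL1 passed without wild-type replicate 1 (-0.32, adjusted p = 0.013). Scaled by library totals alone, 0 rose and 3 fell. Rising and falling members without wild-type replicate 1 numbered 0 and 3. Leaving out each of the other 5 libraries gave 0 to 1 and 1 to 2.

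Matrix proteins rose in 21 of 46 and fell in 4. TGFBI, a collagen-binding matrix protein, had 35.3, 33 and 33.2 CPM in the wild-type libraries and 70.7, 64.8 and 68.3 CPM in the knockout libraries (1.01 ± 0.08, adjusted p = 8.23e-05), and AGRN, agrin (0.76 ± 0.07, adjusted p = 0.000237), and THBS3, a thrombospondin (0.87 ± 0.09, adjusted p = 0.000297), rose. LAMA1 (-0.72 ± 0.08, adjusted p = 0.000297) and COL1A1 (-0.56 ± 0.09, adjusted p = 0.00206) fell. Proteases and their inhibitors rose in 16 of 36 and fell in 2. TIMP3, an inhibitor of metalloproteinases, had 15.7, 15.8 and 14.9 CPM in the wild-type libraries and 24.8, 23.9 and 26.5 CPM in the knockout libraries (0.7 ± 0.10, adjusted p = 0.00101). ADAM10, a sheddase, fell (-0.6 ± 0.11, adjusted p = 0.00256), but not with offsets (-0.29, adjusted p = 0.0567). Semaphorins, plexins, ephrins and Eph receptors rose in 13 of 35 and fell in 1: beside SEMA4B, the receptors PLXND1 (0.7 ± 0.07, adjusted p = 0.000297) and PLXNB2 (0.65 ± 0.07, adjusted p = 0.00036) rose. With offsets these lists had 22 and 9, 14 and 2, and 8 and 0 members rising and falling. Cytokines and their receptors rose in 6 of 30 (20%) and fell in 1 (3.33%), beside 14.1% and 15.5% of all tested genes. LIF (0.57 ± 0.09, adjusted p = 0.0016), IL6 (0.64 ± 0.14, adjusted p = 0.00786), IL11 (0.59 ± 0.19, adjusted p = 0.0386) and CSF1 (0.56 ± 0.11, adjusted p = 0.00381) rose. With offsets the members rising and falling were 9 and 0 for cytokines. Leaving out wild-type replicate 1 gave, rising and falling, 22 and 9 for matrix proteins, 19 and 2 for proteases and inhibitors, 14 and 2 for semaphorins to Eph receptors, 11 and 4 for cytokines. In that fit 22.7% of all tested genes rose and 25.5% fell. Each of the other 5 left out in turn gave 15 to 17 and 3 to 4 for matrix proteins, 13 to 15 and 1 for proteases and inhibitors, 9 to 12 and 0 for semaphorins to Eph receptors, 5 and 0 for cytokines.

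Lysosomal genes rose in 19 of 54 and fell in 7. CTSA, a protective protein of lysosomal hydrolases, had 279.8, 239 and 252 CPM in the wild-type libraries and 425, 417 and 422 CPM in the knockout libraries (0.71 ± 0.08, adjusted p = 0.000395). GRN, progranulin, rose (0.71 ± 0.09, adjusted p = 0.000585), CTSD (0.58 ± 0.09, adjusted p = 0.00178) and GAA, acid alpha-glucosidase (0.56 ± 0.09, adjusted p = 0.00156). The members that fell included ATP6V1C1, a proton pump subunit (-0.69 ± 0.13, adjusted p = 0.00343), and the regulator MITF (-0.8 ± 0.13, adjusted p = 0.00174). Genes of glycogen and gluconeogenesis rose in 8 of 18 and fell in 1, with PC, pyruvate carboxylase (0.57 ± 0.08, adjusted p = 0.00115), PCK2 (0.53 ± 0.12, adjusted p = 0.00856) and PYGB (0.45 ± 0.09, adjusted p = 0.00386) among the risen; the member that fell, UGP2 (-0.55 ± 0.10, adjusted p = 0.00252), did not pass with offsets (-0.16, adjusted p = 0.0921). Clock genes rose in 9 of 23 and fell in 3: CRY2 (0.77 ± 0.10, adjusted p = 0.000655) and NR1D1 (0.64 ± 0.10, adjusted p = 0.00166) rose. With offsets the members rising and falling were 20 and 5 for lysosomal genes, 9 and 0 for glycogen and gluconeogenesis and 8 and 1 for clock genes. Without wild-type replicate 1, where 22.7% of all tested genes rose and 25.5% fell, the members rising and falling numbered 25 and 8 for lysosomal genes, 8 and 2 for glycogen and gluconeogenesis, 11 and 7 for clock genes. With each of the other 5 libraries left out in turn they numbered 11 to 13 and 5 to 7 for lysosomal genes, 5 to 6 and 1 for glycogen and gluconeogenesis, 4 to 7 and 1 to 2 for clock genes. Scaled by library totals alone, lysosomal genes had 14 members rising and 16 falling, glycogen and gluconeogenesis 5 and 1, and clock genes 5 and 4.

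Genes of mitosis included kinases, the spindle checkpoint, kinetochore and spindle proteins. Of 47 tested, 23 fell and 2 rose, with a median of −0.39, and 13 and 1 with offsets. BUB1, a spindle checkpoint kinase, had 54.2, 70.0 and 74.9 CPM in the wild-type libraries and 35.5, 37.8 and 34.7 CPM in the knockout libraries (-0.88 ± 0.12, adjusted p = 0.000779). CENPI, a centromere protein, fell (-0.87 ± 0.14, adjusted p = 0.00152), as did NEK2 (-0.8 ± 0.11, adjusted p = 0.00104) and ECT2, a cytokinesis factor (-0.71 ± 0.17, adjusted p = 0.0101), whereas MKI67 (−0.18, adjusted p = 0.397) and PLK1 (0.21, adjusted p = 0.113) did not pass. The 2 members that rose were INCENP (0.32 ± 0.07, adjusted p = 0.00752) and MAD1L1 (0.69 ± 0.22, adjusted p = 0.0354), and neither passed with offsets (adjusted p = 0.318 and 0.169). TTTGAA, the core of the cell cycle homology region of many mitotic promoters, was present on either strand in 25 of the 42 list promoters (59.5%), in 12 of the 20 fallen members with a promoter in the table, and in 9.49% of promoters of tested genes. The 3 RefSeq promoters shown here, of genes that fell and hold it, were chosen after their values were seen: CCNB2 (chr15:59104896-59105195, plus strand), CDK1 (chr10:60778081-60778380, plus strand) and MAD2L1 (chr4:120066799-120067098, minus strand), in GRCh38.p14. The capitals mark TTTGAA, and each runs 5′ to 3′ on the gene's strand.
CCNB2: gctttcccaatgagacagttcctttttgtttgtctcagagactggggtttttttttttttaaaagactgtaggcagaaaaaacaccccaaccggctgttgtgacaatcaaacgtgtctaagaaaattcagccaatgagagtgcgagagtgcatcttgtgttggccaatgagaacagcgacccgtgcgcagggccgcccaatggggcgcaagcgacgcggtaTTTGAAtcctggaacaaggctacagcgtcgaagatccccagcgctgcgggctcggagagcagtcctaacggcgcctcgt
CDK1: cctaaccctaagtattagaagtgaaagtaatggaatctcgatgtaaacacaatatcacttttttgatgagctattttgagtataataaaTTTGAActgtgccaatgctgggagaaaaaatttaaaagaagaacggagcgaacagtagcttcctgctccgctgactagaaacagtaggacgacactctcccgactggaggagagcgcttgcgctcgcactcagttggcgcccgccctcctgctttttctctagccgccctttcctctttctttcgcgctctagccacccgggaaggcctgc
MAD2L1: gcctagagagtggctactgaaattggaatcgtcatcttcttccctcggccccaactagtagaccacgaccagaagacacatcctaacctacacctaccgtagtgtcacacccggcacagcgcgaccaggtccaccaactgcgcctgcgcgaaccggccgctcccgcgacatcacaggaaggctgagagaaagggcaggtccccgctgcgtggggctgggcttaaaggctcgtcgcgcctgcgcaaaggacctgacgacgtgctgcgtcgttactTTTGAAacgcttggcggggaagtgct
CCNB2, cyclin B2, had 79, 80.5 and 77.8 CPM in the wild-type libraries and 50.4, 50.7 and 56.8 CPM in the knockout libraries (-0.59 ± 0.08, adjusted p = 0.00088). CDK1, its kinase, had 72.6, 79.5 and 88 CPM in the wild-type libraries and 49, 44.9 and 55.5 CPM in the knockout libraries (-0.68 ± 0.10, adjusted p = 0.0012), and MAD2L1, a checkpoint protein, fell (-0.67 ± 0.10, adjusted p = 0.00142). Rising and falling members without wild-type replicate 1 numbered 9 and 27. Leaving out each of the other 5 libraries gave 1 and 14 to 19.

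Ribosome assembly and nucleolar genes fell in 39 of 77 and rose in 6, and in 27 and 1 with offsets. DDX21, a nucleolar helicase, had 103, 133 and 157 CPM in the wild-type libraries and 65.4, 77.2 and 69.5 CPM in the knockout libraries (-0.89 ± 0.13, adjusted p = 0.00128). RIOK2 (-1.04 ± 0.21, adjusted p = 0.00452) and RIOK1 (-0.88 ± 0.14, adjusted p = 0.00174), kinases of late small-subunit maturation, fell, and NOP53 rose (0.61 ± 0.12, adjusted p = 0.00471). LTV1, which ships small subunits from the nucleus, fell (-0.81 ± 0.19, adjusted p = 0.0107) and POLR1A, the catalytic subunit of RNA polymerase I, rose (0.32 ± 0.07, adjusted p = 0.00767), but neither passed with offsets (adjusted p = 0.0634 and 0.116). Among rRNA and tRNA methyltransferases 13 of 51 fell, METTL5 included, and 1 rose. TRMT10A (-1.1 ± 0.29, adjusted p = 0.0165) and TRMT11 (-0.92 ± 0.20, adjusted p = 0.00751), which modify tRNA, fell, but not with offsets (adjusted p = 0.0938 and 0.0576). Of 50 large-subunit ribosomal protein genes 6 rose (12%) and 1 fell (2%), and of 32 small-subunit genes 2 rose (6.25%) and 0 fell. In the main fit both lists were below the shares of all tested genes, 14.1% risen and 15.5% fallen. RPL13 rose (0.52 ± 0.13, adjusted p = 0.0112) and RPLP0 (0.32 ± 0.10, adjusted p = 0.0322). With offsets the members rising and falling were 1 and 7 for methyltransferases, 21 and 1 for large-subunit proteins and 12 and 1 for small-subunit proteins. Of all tested genes 11.2% fell in that fit, and the fallen share of the 51 methyltransferases was not far from this. Leaving out wild-type replicate 1 gave, rising and falling, 16 and 44 for ribosome assembly, 6 and 19 for methyltransferases, 31 and 2 for large-subunit proteins, 25 and 0 for small-subunit proteins. All tested genes then rose in 22.7% and fell in 25.5%, so the ribosomal protein rises were above the share of all genes there. Each of the other 5 left out in turn gave 2 to 3 and 23 to 32 for ribosome assembly, 0 and 4 to 7 for methyltransferases, 0 to 2 and 0 to 1 for large-subunit proteins, 0 and 0 for small-subunit proteins. Scaled by library totals alone, the large-subunit genes had 5 members rising and 10 falling.

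Nucleoporins fell in 14 of 30 and rose in 2. NUP58, a central channel protein, had 45.8, 59.5 and 57.2 CPM in the wild-type libraries and 28.8, 28 and 27.5 CPM in the knockout libraries (-0.95 ± 0.11, adjusted p = 0.000395), and NUP107, of the scaffold (-0.93 ± 0.11, adjusted p = 0.00056), and NUP54 (-0.79 ± 0.14, adjusted p = 0.00231) fell. NUP210 rose (0.4 ± 0.07, adjusted p = 0.00277), but not with offsets (0.14, adjusted p = 0.058). Export factors fell in 11 of 29 and rose in 5: beside ALYREF, NCBP1, of the cap-binding complex, fell (-0.67 ± 0.12, adjusted p = 0.00334), while the helicases DDX39A and DDX39B, which recruit ALYREF, rose (0.68 ± 0.11, adjusted p = 0.00175 for DDX39A and 0.7 ± 0.08, adjusted p = 0.000431 for DDX39B). RNA decay genes fell in 16 of 48 and rose in 5, with falls in DCP1A, of the decapping complex (-0.92 ± 0.17, adjusted p = 0.00326), EXOSC3, of the exosome (-0.74 ± 0.10, adjusted p = 0.00101), and DIS3, an exosome nuclease (-0.7 ± 0.17, adjusted p = 0.0105). Genes of mRNA m6A fell in 9 of 24 and rose in 2: METTL14, of the writer (-0.92 ± 0.19, adjusted p = 0.00523), YTHDC2 (-0.94 ± 0.19, adjusted p = 0.00535) and FTO, an eraser (-0.64 ± 0.11, adjusted p = 0.00192), fell, and RBM15 rose. With offsets the members rising and falling were 2 and 8 for nucleoporins, 5 and 5 for export factors, 2 and 6 for RNA decay and 2 and 4 for m6A genes. Of all tested genes 11.2% fell in that fit, and the fallen share of the 48 RNA decay genes was close to this. Mitochondrially encoded mRNAs rose in 7 of 13, MT-ND1 (0.47 ± 0.09, adjusted p = 0.00409) and MT-ATP8 (0.5 ± 0.10, adjusted p = 0.00403) among them, and 11 with offsets. Without wild-type replicate 1 the members rising and falling numbered 6 and 16 for nucleoporins, 9 and 14 for export factors, 9 and 25 for RNA decay, 5 and 11 for m6A genes, 9 and 0 for mitochondrial mRNAs. With each of the other 5 libraries left out in turn they numbered 1 to 2 and 8 to 11 for nucleoporins, 2 to 4 and 5 to 9 for export factors, 2 to 3 and 8 to 11 for RNA decay, 1 to 2 and 5 to 7 for m6A genes, 2 to 3 and 0 for mitochondrial mRNAs.

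**Figure D4:**
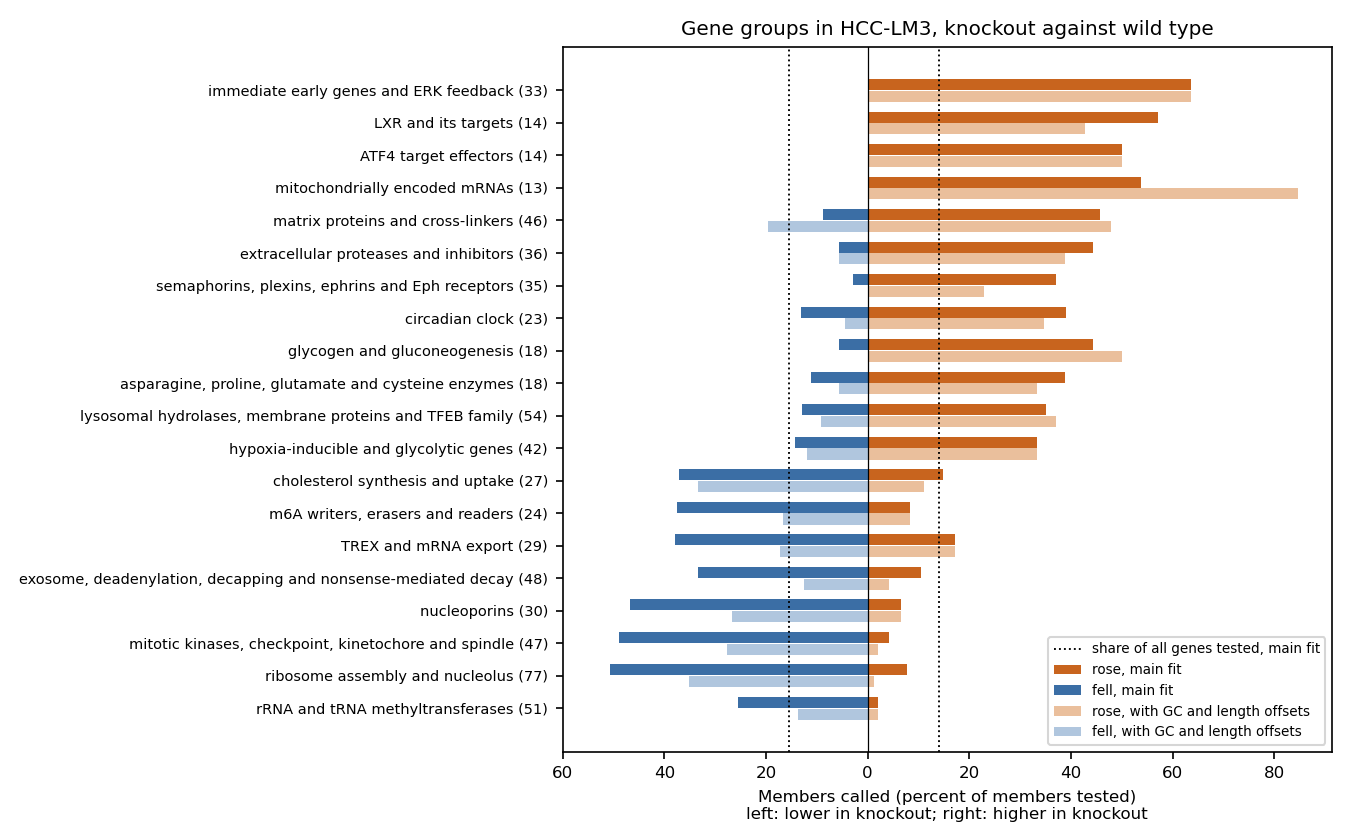
Percent of tested members that rose (right) or fell (left) for 20 gene groups, with the number tested in brackets, from the main fit (dark) and with GC and length offsets (pale); dotted lines mark 14.1% and 15.5%, the shares of all tested genes that rose and fell. The lines belong to the main fit. With offsets 1761 of all 14654 tested genes rose and 1635 fell. Immediate early and ERK feedback genes, LXR targets, ATF4 effectors and mitochondrially encoded mRNAs have no member that fell in either fit.

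**Figure D5:**
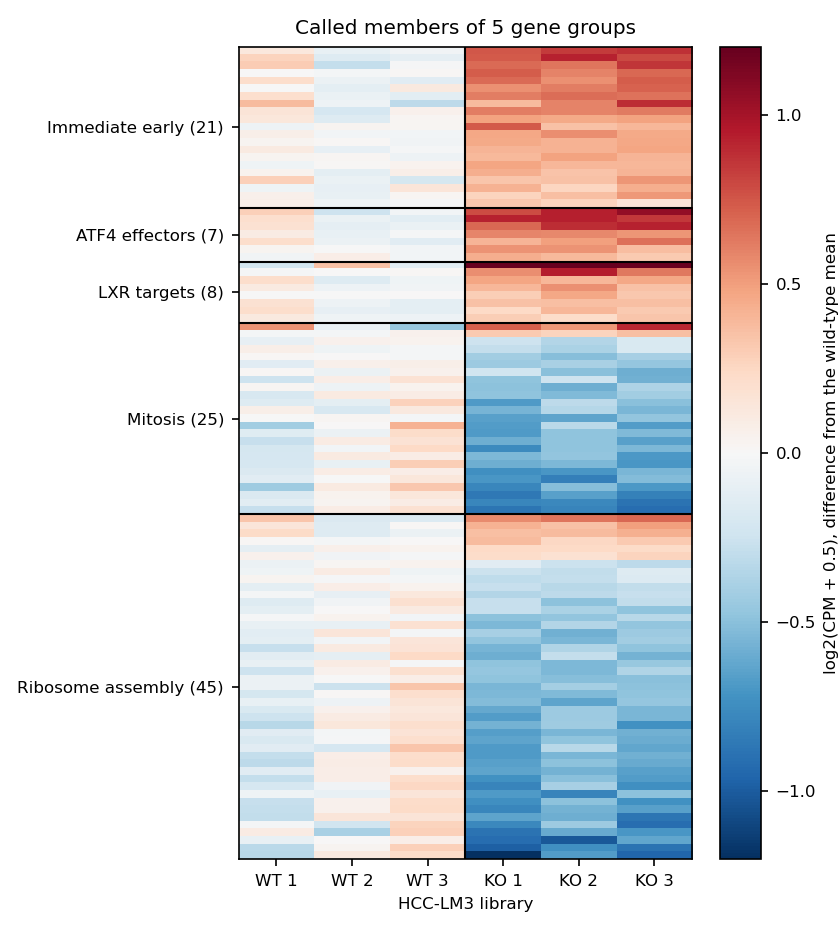
Rows are the called members of 5 groups and columns the 6 libraries; colour is log2(CPM + 0.5) minus the mean of the wild-type libraries. Wild-type replicate 1 lies toward the knockout side in many rows of the immediate early, mitosis and ribosome assembly groups.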

How the data were processed

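The 6 HCC-LM3 libraries, 3 wild type and 3 METTL5 knockout, were analysed from one table of all genes. The expected counts and TPM per gene are the authors' deposited values, and the submitters' processing notes name Bowtie 0.12.2 and the builds mm8 and mm9, which are mouse builds. No source used here names the counting tool, its strand setting or a human build. Expected counts were rounded to whole numbers, filtered with edgeR's filterByExpr and scaled by TMM, and tested in edgeR 4.0.16 (R 4.3.3; robust quasi-likelihood F test, two-sided, 4 residual degrees of freedom) with Benjamini-Hochberg adjustment over 14654 genes. The standard error is the absolute log2 fold change divided by the square root of F. Alternatives used DESeq2 1.42.0, limma 3.58.1, other scalings and filters, a replicate block, GC and length offsets, and each library left out in turn. Depth was 21730022 to 26415554 counts, and the 3 libraries a group limit precision. Gene positions come from GENCODE 29 (99.5% of 58884 identifiers matched) and promoters from RefSeq.

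Named genes are METTL5, TRMT112, the ACSL genes, the 15 largest changes in each direction among called protein-coding genes of at least 5 CPM whose groups did not overlap, the 6 among long non-coding genes of at least 1 CPM, genes with 50 counts or more in one group and at most 3 in the other, called genes among the 30 most abundant, and up to 4 called members per direction of each of 71 lists; HK2, SLC2A1, PKM, ADH4, ENO1, LDHA and TPI1 were left out after their values were seen, for the reasons given in the text. Members and lists were chosen with earlier results of these data known. Lists have no test of their own.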

Additional observations from a re-analysis of the deposited data

How the results depend on the processing

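The number of genes called in HCC-LM3 was 4340. With each library left out in turn it ran from 2310 to 7231: it was highest without wild-type replicate 1, and was 2615, 2448, 2310, 2821 and 2388 without wild-type replicates 2 and 3 and knockout replicates 1, 2 and 3. At adjusted p under 0.01 it was 1996. Changes of 2-fold or more numbered 274, and 182 with GC and length offsets. They ran from 192 to 500 with each library left out, highest again without wild-type replicate 1. Library totals alone gave 1280 higher and 3255 lower calls in place of 2066 and 2274. Of 131 called genes among 141 named, 104 kept their call in all 14 alternatives and none changed sign, and the offsets ended 16 of these calls. The cause was not tested. The replicate block gave 3758 calls, and the labels do not say whether replicate numbers pair the samples. Deviations of same-numbered libraries from their group means correlated at -0.063, 0.086 and -0.154. Deviations within a group of 3 sum to 0, and wild-type replicate 1 stood apart, so these values cannot decide whether samples were paired. Leaving out the 7 rows set aside, an alternative chosen after seeing the data, gave 4335 calls, 267 of them of 2-fold or more.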
